A study of Mus musculus with 8 samples.

Results

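The 38 genes described here carry or mark the cell division cycle: 7 act in G1 and at the entry into S phase, 12 license replication origins or make DNA, and 19 act in G2 and mitosis. They were taken by symbol from the gene column of the 8 deposited tables, where all 38 were found among 21968 named genes, and all 38 were among the 14404 genes that passed the filter on low counts. The RNA came from livers of Lgr5-LacZ transgenic mice, whose LacZ gene reports on the Wnt target Lgr5, on a mixed C57BL/6 and CBA background, taken 6 days after 1 intraperitoneal dose of carbon tetrachloride (CCl4, 1 µl per g of body weight, in rapeseed oil), a toxin that kills hepatocytes around the central vein and starts regeneration. The 4 populations were profiled in 2 libraries each (replicates 1 and 2), and every library pooled the cells of 2 mice: b-gal+ F4/80high cells and b-gal- F4/80high cells, parted by β-galactosidase activity (a substrate that turns fluorescent) after staining for the macrophage antigen F4/80, EpCAM-positive cells, and hepatocytes pelleted at low speed. All groups share the transgene and the injury, and no uninjured liver was analysed here, so the differences are between cell types of the injured liver. Mice were 10 to 12 weeks old per the labels, or 7 to 12 weeks per the series text, and nothing says whether libraries with the same number came from the same mice.

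A cell that leaves rest first makes D-type cyclins, which free E2F factors from the retinoblastoma family; E2F then switches on cyclin E and the replication genes, and CDK2 drives the cell into S phase, while p21 (Cdkn1a) holds CDK2 back. Later FOXM1 and B-MYB switch on cyclins A and B, CDK1 and the spindle genes, and the same mitotic promoters are kept silent in resting cells by the DREAM complex, which sits on the CHR element (cell cycle genes homology region) of mitotic genes and on E2F sites of replication genes. After CCl4 the surviving hepatocytes of a mouse enter the cycle first and non-parenchymal cells follow.

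Sequencing gave 16948568 to 24549242 reads of named genes per library, where 3 reads correspond to 0.122 to 0.177 CPM before scaling. CPM are the reads of a gene scaled to a common library total. Levels below are CPM corrected with TMM factors, which correct for the few very abundant transcripts of hepatocytes and ran between 0.527 and 1.49. The labels were set against marker lists. Adgre1, which encodes F4/80, had 1731 and 1361 CPM in b-gal+ cells and 311 and 134 CPM in b-gal- cells. The reporter transcript LacZ gave 0 and 4 reads in b-gal+ libraries, against 1 and 0 reads in b-gal- libraries. It gave 0 and 9 reads in EpCAM-positive libraries and 1 and 14 reads in hepatocyte libraries. The RNA thus offers no check of the b-gal gate at this depth. Kupffer cell markers (10 genes) summed to 34553 and 32140 CPM in b-gal+ cells, but to 2881 and 2113 CPM in b-gal- cells, whose sinusoidal endothelial markers (8 genes) summed to 17205 and 20389 CPM. EpCAM-positive cells held Epcam at 88.5 and 214 CPM, and their endothelial markers summed to 7236 and 6190 CPM and their B and plasma cell markers to 4293 and 1655 CPM. The b-gal+ libraries held endothelial markers too, with sums of 3584 and 2694 CPM, below their Kupffer cell sums. The b-gal+, b-gal- and EpCAM-positive libraries are therefore described by their gates and not as 1 cell type. In bulk RNA, fewer cycling cells and less RNA of these genes per cell cannot be told apart.

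Promoter sequences show how the replication genes and the mitotic genes differ in the letters around their starts. The sequences are RefSeq windows on GRCm38.p6, of which 29 of the 38 genes had an entry; each window runs from 250 bases before to 50 bases after the annotated start. The motifs were searched on both strands: the CHR element as TTTGAA or TTCGAA, the E2F site as TTTGGCGC, TTTCGCGC, TTCCCGCC or TTTCCCGC, whose matches may overlap each other, and the CCAAT box, bound by NF-Y, as CCAAT. The stretches below run 5′ to 3′ on the gene's strand from 150 bases before the start to 20 bases after it, and the capitals mark whole matches to any of these motifs. They were chosen to set 3 origin licensing or nucleotide genes with an E2F site (Mcm6, Rrm1, Cdc6) beside 4 mitotic genes with a CHR element (Cdk1, Ccnb2, Cdc20, Mki67).
Mcm6, chr1:128359686-128359855, minus strand: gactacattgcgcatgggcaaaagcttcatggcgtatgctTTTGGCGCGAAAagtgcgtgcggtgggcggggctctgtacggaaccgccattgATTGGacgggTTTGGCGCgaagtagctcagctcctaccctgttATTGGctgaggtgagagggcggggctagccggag
Rrm1, chr7:102441545-102441714, plus strand: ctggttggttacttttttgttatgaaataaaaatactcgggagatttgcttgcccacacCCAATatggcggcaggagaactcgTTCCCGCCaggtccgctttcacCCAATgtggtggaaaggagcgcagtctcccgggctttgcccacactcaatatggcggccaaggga
Cdc6, chr11:98908001-98908170, plus strand: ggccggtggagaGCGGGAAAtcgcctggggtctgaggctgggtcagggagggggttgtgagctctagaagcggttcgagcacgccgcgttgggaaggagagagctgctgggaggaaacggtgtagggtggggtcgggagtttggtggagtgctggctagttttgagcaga
Cdk1, chr10:69352893-69353062, minus strand: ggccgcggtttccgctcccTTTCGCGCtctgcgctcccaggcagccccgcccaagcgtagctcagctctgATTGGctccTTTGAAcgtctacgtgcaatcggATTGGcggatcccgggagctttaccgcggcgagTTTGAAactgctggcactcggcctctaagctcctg
Ccnb2, chr9:70421535-70421704, minus strand: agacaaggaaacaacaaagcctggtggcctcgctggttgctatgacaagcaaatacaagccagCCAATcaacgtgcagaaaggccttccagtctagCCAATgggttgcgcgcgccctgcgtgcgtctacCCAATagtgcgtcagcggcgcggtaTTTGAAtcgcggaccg
Cdc20, chr4:118437324-118437493, minus strand: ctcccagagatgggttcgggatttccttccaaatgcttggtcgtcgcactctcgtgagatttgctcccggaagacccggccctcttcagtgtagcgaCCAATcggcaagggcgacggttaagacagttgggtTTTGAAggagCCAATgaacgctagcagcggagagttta
Mki67, chr7:135716360-135716529, minus strand: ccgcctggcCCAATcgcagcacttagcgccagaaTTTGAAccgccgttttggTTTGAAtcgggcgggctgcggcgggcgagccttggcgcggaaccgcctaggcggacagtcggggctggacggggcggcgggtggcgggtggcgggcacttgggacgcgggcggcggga

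In Mcm6, a subunit of the replicative helicase, overlapping E2F matches start at -110 and -106 and another at -47, counted from the annotated start. Rrm1, the large subunit of ribonucleotide reductase, has its E2F match at -67 between CCAAT boxes at -91 and -45, and Cdc6, which loads the helicase, has 1 match at -138. Cdk1, the mitotic kinase, holds an E2F match at -131 as well as CHR elements at -71 and -15. Cdc20, which activates the anaphase-promoting complex, has a CHR element at -18 after a CCAAT box at -53, and Mki67, the chromosome surface protein Ki-67, has CHR elements at -116 and -98. Over the windows, a CHR element was present in 12 of 14 mitotic genes (85.71%), 2 of 11 S phase genes (18.18%) and 0 of 4 G1 genes, against 21.66% of 27025 genes with a window. An E2F site was present in 1 of 14 mitotic genes, Cdk1 (7.143%), 7 of 11 S phase genes (63.64%) and 1 of 4 G1 genes, Cdk2 (25%), against 4% of all genes. CCAAT boxes were present in 13 of 14 mitotic, 8 of 11 S phase and 1 of 4 G1 genes, against 41.06% of all genes. A match is a match of letters, not a bound site.

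**Figure D1:**
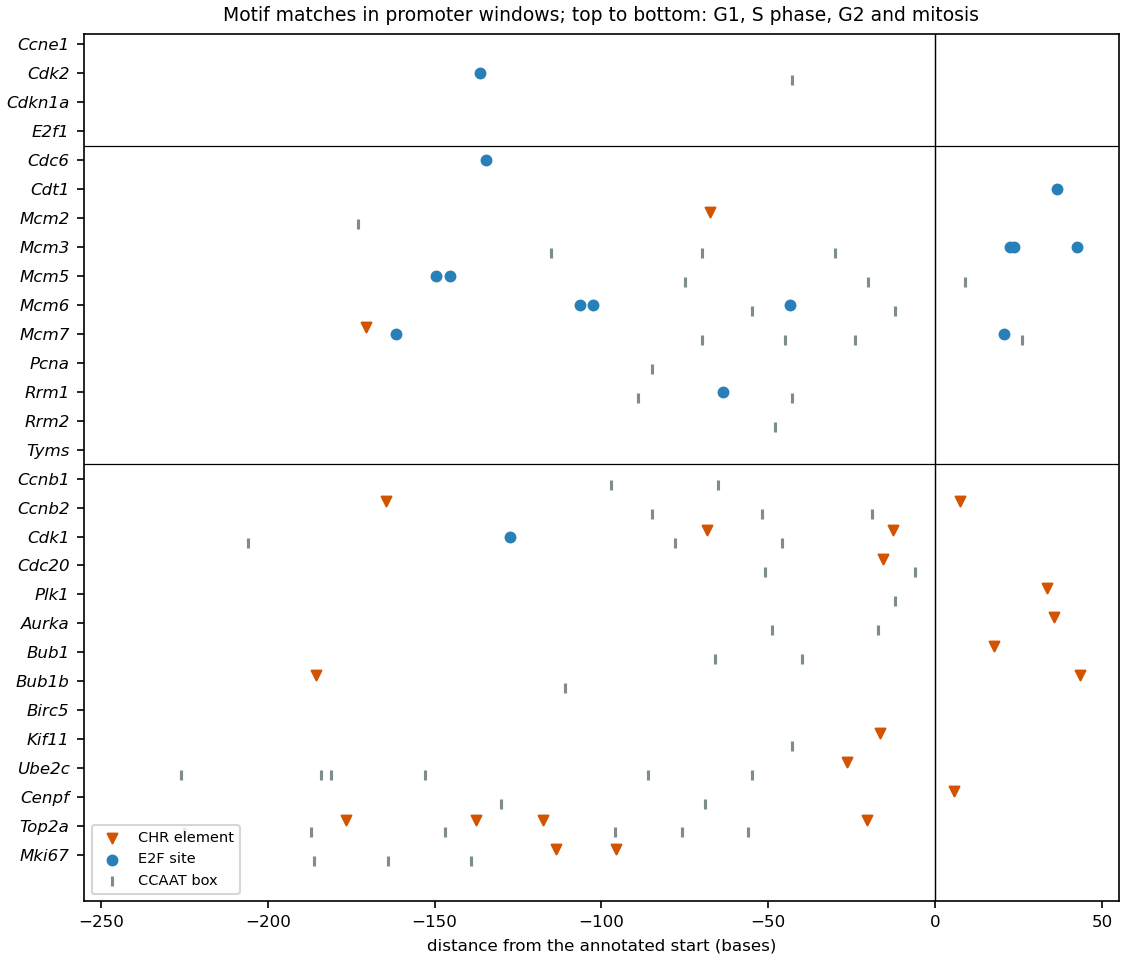
Positions of CHR element, E2F site and CCAAT box matches in the promoter windows of the 29 genes with an entry; the x axis is the distance in bases from the annotated start (vertical line), and rows run from G1 genes through S phase genes to G2 and mitosis genes. CHR elements fall in 12 of 14 mitotic rows and E2F sites in 7 of 11 S phase rows.

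In all 6 non-hepatocyte libraries the summed levels of the S phase genes and of the mitotic genes were above those of both hepatocyte libraries. Calls are differences in log2(CPM + 0.5) with adjusted p under 0.05 in limma. Against hepatocytes, 14 of 38 genes were higher in b-gal+ cells, where 29.5% of all genes tested were higher, and 1 was lower, where 29.6% were lower. In b-gal- cells 23 were higher, against 33.5% of all genes, and 0 were lower, against 29.7%. In EpCAM-positive cells 26 were higher, against 33.5%, and 0 were lower, against 29.1%; both counts of 0 lower genes were also 0 at unadjusted p under 0.05, with edgeR and with DESeq2. Each group has 2 libraries, and the p-values measure the spread between these pooled libraries. With all libraries in the fit, the count of 14 for b-gal+ cells is near the share of all genes, and 23 and 26 of 38 lie above it.

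By role, S phase genes accounted for 8 of the 14 calls in b-gal+ cells (median log2 difference of the 12 genes 1.82), 7 in b-gal- cells (1.54) and 9 in the EpCAM-positive group (1.77). G2 and mitosis genes gave 3 higher calls of 19 in b-gal+ cells (median 1.19), 12 in b-gal- cells (2.13) and 13 in the EpCAM-positive group (2.64). G1 genes gave 3 of 7, 4 of 7 and 4 of 7 higher calls in b-gal+, b-gal- and EpCAM-positive cells (medians 0.39, 0.79 and 1.00). The medians of all genes were 0.10, 0.17 and 0.14. The 3 comparisons share the hepatocyte libraries. Counts moved with single libraries, and such fits leave 1 library in a group. The b-gal+ count fell under the share of all genes called higher without b-gal+ library 1. It was near that share without either hepatocyte library. The b-gal- count fell to near the share without b-gal- library 1 or either hepatocyte library. The EpCAM-positive count fell without hepatocyte library 2 but stayed above the share.

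**Figure D2:**
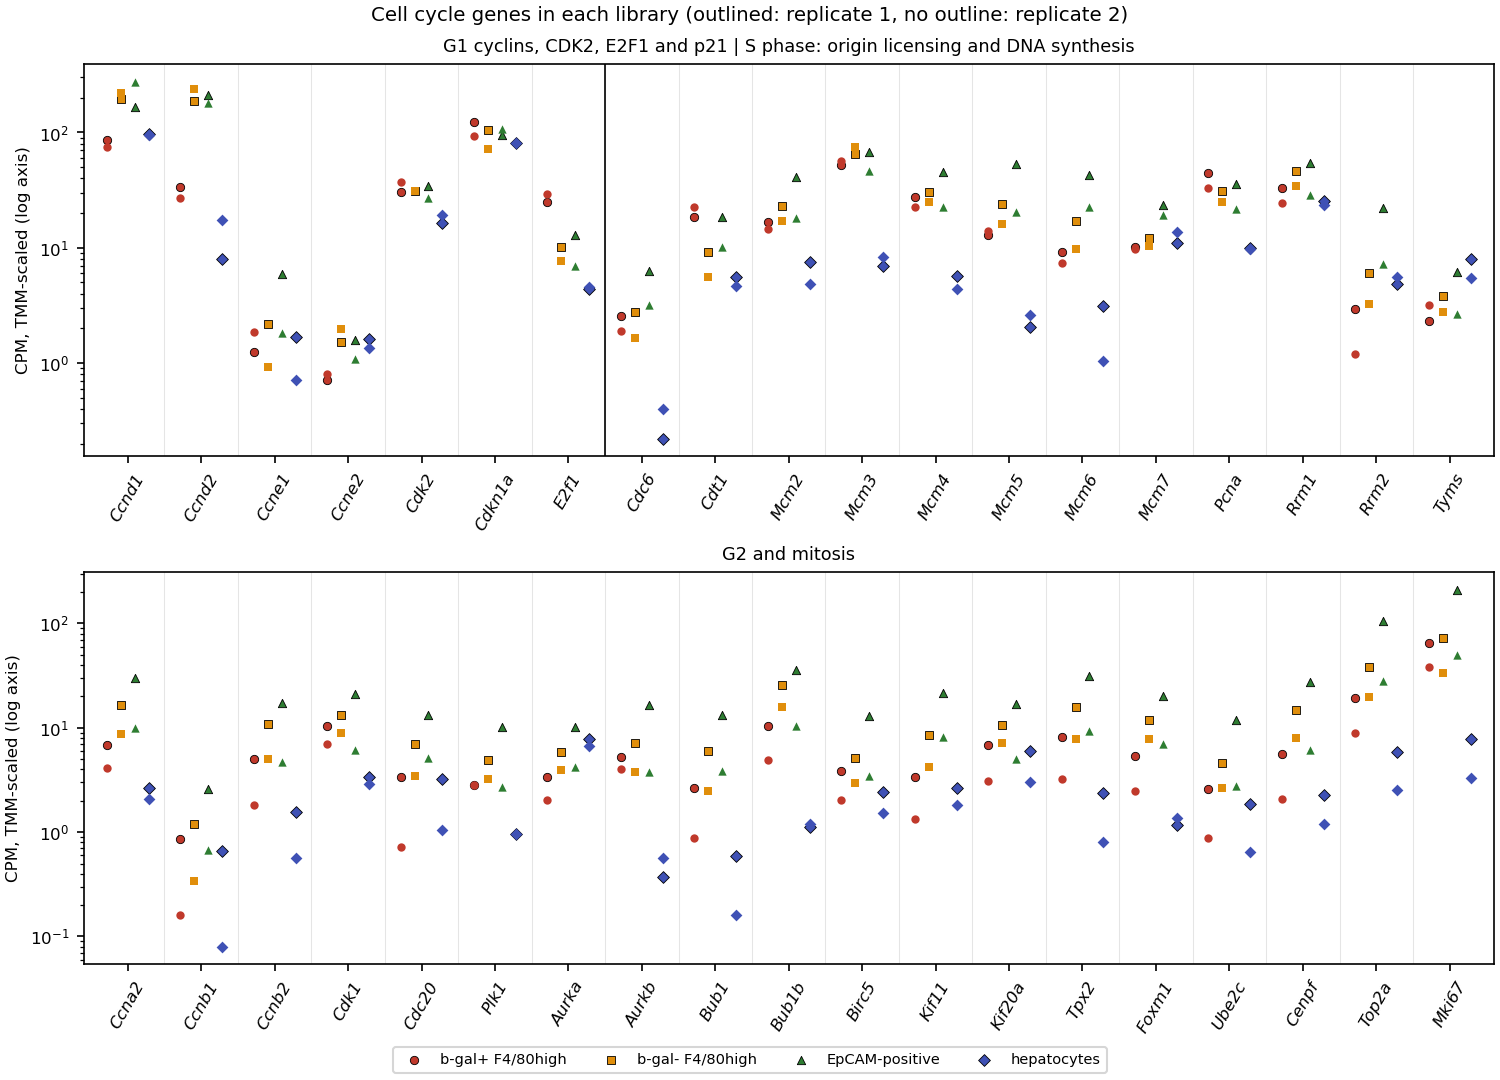
TMM-scaled CPM (log axis) of the 38 genes in each of the 8 libraries, with G1 and S phase genes above and G2 and mitosis genes below; red circles are b-gal+ F4/80high, orange squares b-gal- F4/80high, green triangles EpCAM-positive cells and blue diamonds hepatocytes, and outlined points are replicate 1. Hepatocytes lie lowest for Mcm3 at 6.94 and 8.38 CPM, and b-gal+ cells lie far below b-gal- and EpCAM-positive cells for Ccnd2 at 33.5 and 26.8 CPM.

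Among the G1 genes, the D cyclins set b-gal+ cells apart from the other non-parenchymal libraries. Ccnd2 (cyclin D2; chromosome 6, 127125162 to 127152193, GRCm38) had 33.5 and 26.8 CPM in b-gal+ cells, 189 and 236 CPM in b-gal- cells, 212 and 179 CPM in EpCAM-positive cells, and 8.05 and 17.3 CPM in hepatocytes. The b-gal+ libraries thus lay below all b-gal- and EpCAM-positive libraries and above both hepatocyte libraries. Ccnd2 was lower in b-gal+ than in b-gal- cells by a log2 difference of -2.80 ± 0.34 (SE; adjusted p = 0.00214) and than in EpCAM-positive cells by -2.68 ± 0.34 (0.00259), and both calls held in every alternative tried. Against hepatocytes it was higher by 1.30 ± 0.34 in b-gal+ cells (0.0139), by 4.10 ± 0.34 in b-gal- cells (6.64e-05) and by 3.98 ± 0.34 in the EpCAM-positive group (9.97e-05). The b-gal+ call was lost without b-gal+ library 1 (0.0778) or hepatocyte library 1 (0.0509).

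Ccnd1 (cyclin D1, which partners CDK4 and CDK6 and is induced in regenerating liver) had 86.1 and 75.3 CPM in b-gal+ cells, 194 and 218 CPM in b-gal- cells, 165 and 274 CPM in EpCAM-positive cells, and 97.2 and 95.1 CPM in hepatocytes. The b-gal+ libraries were the lowest and the hepatocyte libraries next, with no overlap between any of these groups other than b-gal- and EpCAM-positive cells. Ccnd1 was lower in b-gal+ than in b-gal- cells by -1.35 ± 0.24 (adjusted p = 0.00877; 0.0743 without b-gal+ library 2 and 0.0678 without b-gal- library 2) and than in EpCAM-positive cells by -1.40 ± 0.24 (0.00635; 0.0531 without b-gal+ library 2). It was higher than in hepatocytes in b-gal- cells by 1.10 ± 0.24 (0.00629) and in EpCAM-positive cells by 1.14 ± 0.24 (0.0055), and its difference in b-gal+ cells was -0.25 ± 0.24 (0.405). Of the Ccnd1 exon bases, 23.36% also lie in exons of LTO1 on the other strand, and the use of strand in counting was not given in the sources used here.

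E2f1, the activating E2F factor, ran the other way from the D cyclins. It had 24.8 and 29.1 CPM in b-gal+ cells, 10.1 and 7.73 CPM in b-gal- cells, 12.9 and 6.92 CPM in EpCAM-positive cells, and 4.43 and 4.55 CPM in hepatocytes. The b-gal+ libraries were above the other 6, and the hepatocyte libraries below them. E2f1 was higher in b-gal+ cells by 1.55 ± 0.33 than in b-gal- cells (adjusted p = 0.016), by 1.46 ± 0.33 than in EpCAM-positive cells (0.0154) and by 2.46 ± 0.33 than in hepatocytes (0.000627). The call against hepatocytes held in every alternative. E2f1 was also higher than in hepatocytes in b-gal- cells by 0.90 ± 0.33 (0.0458) and in EpCAM-positive cells by 1.00 ± 0.33 (0.0324), and these calls were lost without either hepatocyte library (b-gal- call 0.16 and 0.145, EpCAM-positive call 0.123 and 0.111). In b-gal- cells the call was also lost without either b-gal- library (0.208 and 0.0796), without either b-gal+ library (0.0759 and 0.0912), with DESeq2 size factors (0.0643), with pseudocount 2 (0.0592) and without the filter (0.0739). In EpCAM-positive cells it was also lost without EpCAM-positive library 1 (0.114), either b-gal+ library (0.0571 and 0.0652) or b-gal- library 1 (0.0506). The b-gal+ call against b-gal- cells was lost without b-gal+ library 1 (0.0673), b-gal+ library 2 (0.104) or b-gal- library 2 (0.117), and that against EpCAM-positive cells without b-gal+ library 1 (0.0612) or 2 (0.0958).

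Cdk2, the kinase of the G1 to S transition, had 30.2 and 37.2 CPM in b-gal+ cells, 31.1 and 31.1 CPM in b-gal- cells, 34.4 and 27.2 CPM in EpCAM-positive cells, and 16.3 and 19.3 CPM in hepatocytes. The hepatocyte libraries lay below the other 6. Cdk2 was higher than in hepatocytes by 0.90 ± 0.19 in b-gal+ cells (adjusted p = 0.00621), 0.79 ± 0.19 in b-gal- cells (0.0101) and 0.77 ± 0.19 in the EpCAM-positive group (0.0118), the smallest called G1 differences. These calls were lost without b-gal+ library 2 (0.0555) in b-gal+ cells, without either b-gal- library (0.0521 and 0.053) or hepatocyte library 1 (0.0743) in b-gal- cells, and without hepatocyte library 1 (0.0782) in EpCAM-positive cells.

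Cdkn1a, the CDK inhibitor p21, was called in no comparison, with 125 and 92.7 CPM in b-gal+ cells, 106 and 71.9 CPM in b-gal- cells, 95.1 and 107 CPM in EpCAM-positive cells, and 81.7 and 81.8 CPM in hepatocytes. Its libraries overlapped between all groups except b-gal+ or EpCAM-positive cells and hepatocytes, and its differences from hepatocytes of 0.39 ± 0.23, 0.09 ± 0.23 and 0.30 ± 0.23 in b-gal+, b-gal- and EpCAM-positive cells missed the threshold (adjusted p = 0.178, 0.736 and 0.277). Per kb of exon, Cdkn1a and Ccnd1 were the 2 highest of the 38 genes in each population, at 30.6 and 17.1 CPM per kb in b-gal+ cells and 23.0 and 20.4 in hepatocytes. Among the E cyclins, which activate CDK2, Ccne1 ranged from 0.719 to 5.90 CPM and Ccne2 from 0.716 to 1.96 CPM over the 8 libraries, and neither passed in any comparison.

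Most origin licensing genes were above hepatocytes in each population. MCM2 to MCM7 form the ring-shaped replicative helicase; 5 of these 6 genes, all but Mcm7, were higher than in hepatocytes in each of the 3 populations. Mcm3 (chromosome 1, 20802968 to 20820312) had 52.5 and 56.5 CPM in b-gal+ cells, 64.8 and 75.1 CPM in b-gal- cells, 67.8 and 46.2 CPM in EpCAM-positive cells, and 6.94 and 8.38 CPM in hepatocytes. Its hepatocyte libraries were far below the other 6, which overlapped between EpCAM-positive cells and the rest. Mcm3 was higher by 2.76 ± 0.22 in b-gal+ cells (adjusted p = 5.89e-05), 3.11 ± 0.22 in b-gal- cells (3.39e-05) and 2.80 ± 0.22 in the EpCAM-positive group (6.85e-05), and these calls, with those of Mcm4, Mcm5 and Pcna, held in every alternative.

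Mcm6 had 9.21 and 7.32 CPM in b-gal+ cells, 17.2 and 9.83 CPM in b-gal- cells, 42.9 and 22.5 CPM in EpCAM-positive cells, and 3.10 and 1.04 CPM in hepatocytes. The EpCAM-positive libraries were highest, followed by b-gal-, b-gal+ and hepatocyte libraries, with no overlap between neighbours in this order. It was higher than in hepatocytes by 1.89 ± 0.52 in b-gal+ cells (adjusted p = 0.0169), by 2.52 ± 0.52 in b-gal- cells (0.00454) and by 3.75 ± 0.52 in the EpCAM-positive group (0.000803), and lower in b-gal+ than in EpCAM-positive cells by -1.86 ± 0.52 (0.033). The b-gal+ calls were the less firm: against hepatocytes the call was lost without b-gal+ library 1 (0.0839), b-gal+ library 2 (0.0538) or hepatocyte library 2 (0.099), and against EpCAM-positive cells without EpCAM-positive library 1 (0.114) or b-gal+ library 1 (0.0964) or 2 (0.157).

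Mcm7 differed from the rest of the ring. It had 10.1 and 9.81 CPM in b-gal+ cells, 12.2 and 10.3 CPM in b-gal- cells, 23.5 and 19.2 CPM in EpCAM-positive cells, and 10.9 and 13.6 CPM in hepatocytes, so that the EpCAM-positive libraries stood above the other 6. It was higher in EpCAM-positive cells than in hepatocytes by 0.78 ± 0.22 (adjusted p = 0.0197; 0.069 without EpCAM-positive library 1 and 0.108 without hepatocyte library 1). It was lower than in EpCAM-positive cells by -1.06 ± 0.22 in b-gal+ cells (0.0125; 0.0617 and 0.0771 without b-gal+ library 1 and 2) and by -0.89 ± 0.22 in b-gal- cells (0.0472), and that b-gal- call was lost without any 1 of the 8 libraries (adjusted p up to 0.258). Its differences from hepatocytes in b-gal+ and b-gal- cells were -0.28 ± 0.22 (0.319) and -0.11 ± 0.22 (0.682).

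Among the loading factors, Cdt1, which brings the MCM ring to origins, was high in b-gal+ cells. It had 18.3 and 22.7 CPM in b-gal+ cells, 9.25 and 5.53 CPM in b-gal- cells, 18.4 and 10.1 CPM in EpCAM-positive cells, and 5.54 and 4.63 CPM in hepatocytes. The b-gal+ libraries lay above both b-gal- and both hepatocyte libraries and overlapped the EpCAM-positive ones. Cdt1 was higher in b-gal+ cells by 1.45 ± 0.37 than in b-gal- cells (adjusted p = 0.0317) and by 1.91 ± 0.37 than in hepatocytes (0.00379). The first of these calls was lost without b-gal+ library 1 (0.0974) or 2 (0.164), b-gal- library 2 (0.201) or either hepatocyte library (0.0595 and 0.0591). In EpCAM-positive cells Cdt1 was also called higher than in hepatocytes, a call kept in 14 of 17 alternatives. Cdc6 had between 1.66 and 6.32 CPM in the 6 non-hepatocyte libraries, and 0.222 and 0.399 CPM in hepatocytes. Those hepatocyte values are 3 and 5 reads, at and near the floor of 3 reads. Cdc6 was called higher in all 3 populations. Its b-gal+ call was lost without b-gal+ library 1 or hepatocyte library 1 (both 0.0526), and its b-gal- call without b-gal- library 1 (0.0565) or hepatocyte library 1 (0.055).

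Pcna, the sliding clamp of DNA polymerase, had 44.9 and 33.3 CPM in b-gal+ cells, 31.1 and 24.8 CPM in b-gal- cells, 35.9 and 21.8 CPM in EpCAM-positive cells, and 10.0 and 9.74 CPM in hepatocytes. It stood above hepatocytes in all 6 other libraries, by 1.91 ± 0.28 (adjusted p = 0.00101), 1.44 ± 0.28 (0.00359) and 1.46 ± 0.28 (0.00367) in b-gal+, b-gal- and EpCAM-positive cells. Mcm2, the smallest called S phase difference in b-gal+ cells, had 16.8 and 14.7 CPM there, against 7.46 and 4.87 CPM in hepatocytes, a difference of 1.31 ± 0.41 (0.0278). That call was lost without b-gal+ library 1 (0.116) or 2 (0.0828), or hepatocyte library 1 (0.0524) or 2 (0.158), and the b-gal- call of Mcm2 without b-gal- library 1 (0.0623) or hepatocyte library 2 (0.081).

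The nucleotide supply genes did not follow the licensing genes. Rrm2, the regulated small subunit of ribonucleotide reductase, had 2.95 and 1.21 CPM in b-gal+ cells, 6.07 and 3.23 CPM in b-gal- cells, 22.1 and 7.29 CPM in EpCAM-positive cells, and 4.87 and 5.59 CPM in hepatocytes. The b-gal+ libraries were below all others. Rrm2 was lower in b-gal+ than in EpCAM-positive cells by -2.45 ± 0.60 (adjusted p = 0.0211; 0.126 without b-gal+ library 2, 0.0555 without EpCAM-positive library 1, 0.051 without either hepatocyte library), and its difference from hepatocytes was -1.24 ± 0.60 (0.117) in b-gal+ cells, -0.21 ± 0.60 (0.779) in b-gal- cells and 1.21 ± 0.60 (0.117) in the EpCAM-positive group. Rrm1 had 23.7 to 53.9 CPM over the 8 libraries and Tyms, thymidylate synthase, 2.33 to 8.05 CPM with its highest value in hepatocyte library 1, and neither passed in any comparison.

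**Figure D3:**
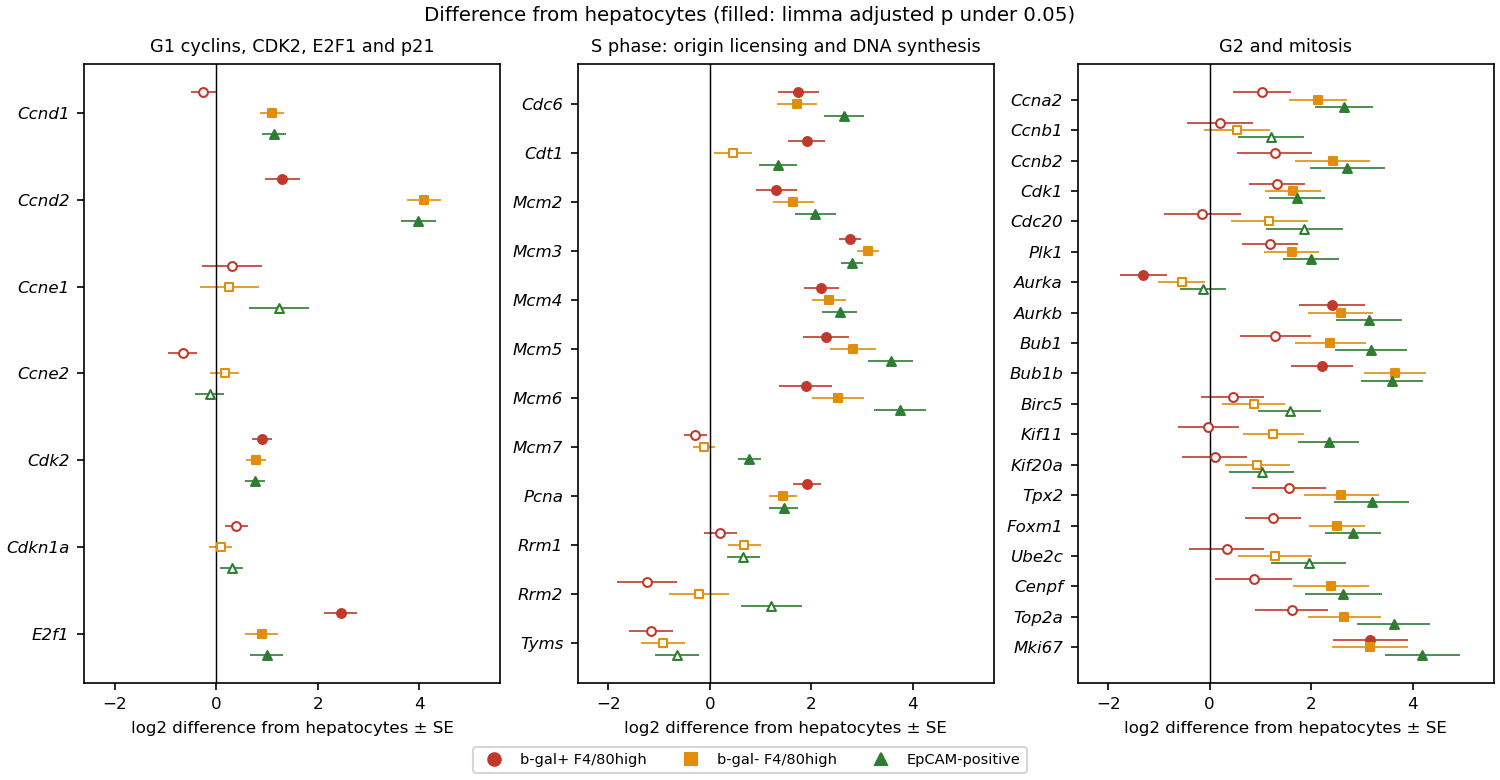
log2 difference from hepatocytes ± SE for the 38 genes in b-gal+ F4/80high (red circles), b-gal- F4/80high (orange squares) and EpCAM-positive cells (green triangles), by role from left to right; filled points have a limma adjusted p under 0.05. Filled points cover Mcm2 to Mcm6, Cdc6 and Pcna in all 3 populations, and 3, 12 and 13 higher mitotic genes; Aurka in b-gal+ cells is the filled point left of 0 at -1.31.

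Among the mitotic genes, Mki67 (chromosome 7, 135689784 to 135716361) was called higher than in hepatocytes in all 3 populations. It had 64.9 and 38.5 CPM in b-gal+ cells, 73.0 and 33.8 CPM in b-gal- cells, 208 and 49.8 CPM in EpCAM-positive cells, and 7.83 and 3.27 CPM in hepatocytes. Every non-hepatocyte library was above both hepatocyte libraries, and the 3 non-hepatocyte groups overlapped. Mki67 was higher than in hepatocytes by 3.17 ± 0.74 in b-gal+ cells (adjusted p = 0.00886), 3.16 ± 0.74 in b-gal- cells (0.0084) and 4.19 ± 0.74 in the EpCAM-positive group (0.00253). The EpCAM-positive call held in every alternative, whereas the b-gal+ call was lost without b-gal+ library 1 (0.0551) or hepatocyte library 2 (0.0718) and the b-gal- call without b-gal- library 1 (0.0506) or hepatocyte library 2 (0.0723). Between b-gal+ and b-gal- cells Mki67 differed by 0.01 ± 0.74, so a difference of either sign within that error was not resolved.

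Top2a, the topoisomerase that untangles sister chromatids, had 19.3 and 8.89 CPM in b-gal+ cells, 37.9 and 19.6 CPM in b-gal- cells, 105 and 28.1 CPM in EpCAM-positive cells, and 5.91 and 2.55 CPM in hepatocytes. Its b-gal+ libraries lay between the b-gal- and the hepatocyte libraries without overlap. Top2a was higher than in hepatocytes by 2.65 ± 0.72 in b-gal- cells (adjusted p = 0.0156; 0.0849 without b-gal- library 1 and 0.114 without hepatocyte library 2) and by 3.63 ± 0.72 in the EpCAM-positive group (0.00421, held in every alternative). In b-gal+ cells its difference was 1.62 ± 0.72 (0.0925).

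Besides Mki67, the mitotic genes called in all 3 populations were Bub1b and Aurkb. Bub1b, the checkpoint protein BUBR1, had 10.3 and 4.87 CPM in b-gal+ cells, 25.8 and 15.9 CPM in b-gal- cells, 35.5 and 10.4 CPM in EpCAM-positive cells, and 1.11 and 1.20 CPM in hepatocytes. Hepatocytes were lowest and the b-gal- libraries were above both b-gal+ libraries. Bub1b was higher than in hepatocytes by 2.21 ± 0.61 in b-gal+ cells (adjusted p = 0.0179), 3.65 ± 0.61 in b-gal- cells (0.00178) and 3.59 ± 0.61 in the EpCAM-positive group (0.00212). The b-gal- and EpCAM-positive calls held in every alternative, and the b-gal+ call was lost without b-gal+ library 1 (0.107) or hepatocyte library 1 (0.0874) or 2 (0.0755), and with pseudocount 2 (0.0507). Aurkb, the kinase of the chromosomal passenger complex, had 5.23 and 4.06 CPM in b-gal+ cells against 0.369 and 0.559 CPM in hepatocytes and was, with Mki67 and Bub1b, called higher in all 3 populations (2.41 ± 0.65, 0.0158 in b-gal+ cells; 0.0776 and 0.0524 without b-gal+ library 1 and 2, 0.0874 and 0.0595 without hepatocyte library 1 and 2, 0.0565 with pseudocount 2). Its b-gal- call was lost without b-gal- library 1 (0.0677) or hepatocyte library 1 (0.0713).

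For the kinases of mitotic entry the calls were less firm. Cdk1 had 10.5 and 7.00 CPM in b-gal+ cells, 13.2 and 8.90 CPM in b-gal- cells, 21.1 and 6.13 CPM in EpCAM-positive cells, and 3.40 and 2.87 CPM in hepatocytes, so that hepatocytes were below the other 6 libraries. It was higher than in hepatocytes by 1.65 ± 0.55 in b-gal- cells (adjusted p = 0.0357) and by 1.72 ± 0.55 in the EpCAM-positive group (0.0308), and by 1.33 ± 0.55 (0.0779) in b-gal+ cells. The EpCAM-positive call was lost without EpCAM-positive library 1 (0.0931) or hepatocyte library 1 (0.105) or 2 (0.136), and the b-gal- call was lost without any 1 of b-gal+, b-gal- or hepatocyte libraries (up to 0.158), with pseudocount 2 (0.052) and without the filter (0.057). Plk1, the polo-like kinase of mitotic entry, had 2.82 and 2.86 CPM in b-gal+ cells and 4.88 and 3.23 CPM in b-gal- cells. It had 10.1 and 2.73 CPM in EpCAM-positive cells, and 0.960 and 0.958 CPM in hepatocytes. Plk1 was called higher in EpCAM-positive cells than in hepatocytes, a call kept in 15 of 17 alternatives. Its difference from hepatocytes in b-gal- cells was 1.62 ± 0.55 (0.0361; lost without any 1 of b-gal+, b-gal- or hepatocyte libraries, up to 0.159, with pseudocount 2, 0.0727, and without the filter, 0.0616). Cyclin A2 and cyclin B2 (Ccna2 and Ccnb2), FOXM1 (Foxm1), Bub1, Tpx2 and Cenpf were likewise called higher in b-gal- and EpCAM-positive cells and had differences of 0.87 to 1.56 in b-gal+ cells that missed the threshold. In hepatocytes Bub1 had 8 and 2 reads, the second under the floor of 3 reads. Foxm1 kept both calls in every alternative. The b-gal- calls of the other 5 were lost without b-gal- library 1 (0.0891 to 0.134) or hepatocyte library 2 (0.0879 to 0.155), and those of Ccna2, Ccnb2, Bub1 and Cenpf also without hepatocyte library 1 (0.0554 to 0.0759); that of Bub1 was lost with pseudocount 2 as well (0.0581). The EpCAM-positive calls of Ccnb2, Bub1, Tpx2 and Cenpf were lost without hepatocyte library 2 (0.0548 to 0.119), and those of Ccnb2 and Cenpf without EpCAM-positive library 1 (0.0733 and 0.0778). The Cenpf calls were also lost without b-gal- library 2 (0.051, b-gal- call) and hepatocyte library 1 (0.061, EpCAM-positive call).

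Aurka, the centrosomal Aurora kinase, was the 1 mitotic gene called lower than in hepatocytes. It had 3.40 and 2.01 CPM in b-gal+ cells, 5.80 and 3.96 CPM in b-gal- cells, 10.2 and 4.19 CPM in EpCAM-positive cells, and 7.83 and 6.71 CPM in hepatocytes. The b-gal+ libraries were below all others. The difference from hepatocytes was -1.31 ± 0.46 in b-gal+ cells (adjusted p = 0.0443), and it was lost with scaling by library totals alone (-0.41, 0.451), with edgeR (0.0504), with pseudocount 2 (0.0516), without the filter (0.0644) and without any 1 of the b-gal+, b-gal- or hepatocyte libraries (0.0619 to 0.195). Ccnb1, Cdc20, Birc5, Kif20a and Ube2c passed in no comparison. Ccnb1, cyclin B1, had 0.0798 to 2.61 CPM over the 8 libraries, and in hepatocyte library 2 it had 1 read, under the floor of 3 reads. Kif11, the spindle motor Eg5, was higher in EpCAM-positive cells than in hepatocytes by 2.35 ± 0.60 (0.0123; 0.0532 without EpCAM-positive library 1, 0.0502 and 0.0805 without hepatocyte library 1 and 2).

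Setting b-gal+ against b-gal- cells gave 4 calls of 38: E2f1 and Cdt1 higher, where 10.3% of all genes were higher, and Ccnd1 and Ccnd2 lower, where 13% were lower. These counts are under the shares of all genes. Of the 19 mitotic genes 18 had lower values in b-gal+ cells, with a median log2 difference of -1.03 against -0.02 for all genes, and 0 passed, nor did any at unadjusted p under 0.05, with edgeR or with DESeq2 (0 of 19 each). With the replicate number as a block in the limma fit, 7 of the 19 were lower, and 9 of all 38 genes in place of 2. All genes gave 4060 calls of 14404 with the block, 46.77% of them higher, against 3357 calls and 44.38% without it. Both block counts lay above the share of all genes called lower. The labels do not say that a number marks shared mice. Of the 12 S phase genes 9 had lower values, with a median of -0.28. The G1 median of 0.05 turned to -0.06 when libraries were scaled by their totals alone, while the S phase and mitotic medians kept their sign under all 3 scalings. Kupffer cell, endothelial and recruited monocyte markers also differed between these gates: recruited monocyte markers (6 genes, none at 0 reads) summed to 324 and 94.5 CPM in b-gal+ cells and 775 and 168 CPM in b-gal- cells. Their part in the cell cycle differences was not tested.

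Against EpCAM-positive cells, 1 gene was higher in b-gal+ cells (E2f1), where 14.7% of all genes were higher, and 6 were lower, where 17.9% were lower. The 6 were Ccnd1, Ccnd2, Mcm6, Mcm7, Rrm2 and Kif11. Kif11 had 3.40 and 1.33 CPM in b-gal+ cells and 21.7 and 8.15 CPM in EpCAM-positive cells, a difference of -2.38 ± 0.60 (adjusted p = 0.0237), lost without b-gal+ library 2 (0.138), EpCAM-positive library 1 (0.0729) or either hepatocyte library (0.0529 and 0.0527). All 19 mitotic genes had lower mean log2 levels in b-gal+ than in EpCAM-positive cells, with a median of -1.43 against -0.03 for all genes. The number of lower calls fell without b-gal+ library 2 or EpCAM-positive library 1. Without EpCAM-positive library 2 it rose above the share of all genes called lower. With the replicate block the 6 lower calls became 19, of which 14 were mitotic genes. That block gave calls for 5452 of the 14404 genes in this comparison, 46.26% of them higher. The 19 of 38 thus lay above the share of all genes called lower. In b-gal- against EpCAM-positive cells 0 were higher, where 5.63% of all genes were higher, and 1 (Mcm7) was lower, where 6.57% were lower; the 0 was also 0 at unadjusted p under 0.05, with edgeR and with DESeq2. EpCAM-positive library 1 held the highest value of 28 of the 38 genes, a count that was not made over all genes. It also had the higher B and plasma cell and dendritic cell marker sums (4293 and 578 CPM, against 1655 and 214 CPM in library 2). Its Kupffer cell and neutrophil marker sums were higher too (880 and 344 CPM, against 115 and 13.1 CPM). Its cholangiocyte and hepatocyte marker sums were lower (2060 and 711 CPM, against 6596 and 4985 CPM). The part of these cell types was not tested.

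S phase and mitotic levels were set against each other as the mean log2(CPM + 0.5) of the 12 S phase genes minus that of the 19 mitotic genes in each library, a description with no test. The b-gal+ libraries had differences of 1.11 and 1.86, the b-gal- libraries 0.60 and 0.97, the EpCAM-positive libraries 0.44 and 1.19, and the hepatocyte libraries 1.13 and 1.57. On this measure the b-gal+ and hepatocyte libraries were above the b-gal- libraries, and the EpCAM-positive libraries overlapped all 3 other groups. As a ratio of summed CPM, S phase over mitotic, the b-gal+ libraries had 1.36 and 2.32 and the b-gal- libraries 0.964 and 1.51, so that these groups overlapped. The means were 1.49 ± 0.53, 0.79 ± 0.26, 0.82 ± 0.53 and 1.35 ± 0.32 (SD, n = 2 libraries each), in the same order. The b-gal+ and hepatocyte groups reached a similar excess at different levels: the mean S phase log2 level was 3.64 ± 0.13 in b-gal+ cells and 2.51 ± 0.10 in hepatocytes, and the mean mitotic level was 2.15 ± 0.66 in b-gal+ cells and 1.16 ± 0.41 in hepatocytes. Between b-gal+ and b-gal- cells the S phase level overlapped, with means of 3.73 and 3.55 in b-gal+ libraries against 4.03 and 3.59 in b-gal- libraries. The mitotic level was 2.62 and 1.69 in b-gal+ libraries against 3.42 and 2.61 in b-gal- libraries, so that b-gal+ library 1 was level with b-gal- library 2, while within each replicate number the b-gal+ library was the lower.

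Summed over genes, mitotic RNA came to 171 and 91.0 CPM in b-gal+ cells, 281 and 150 CPM in b-gal- cells, 625 and 171 CPM in EpCAM-positive cells, and 54.9 and 32.4 CPM in hepatocytes. Summed S phase RNA came to 233 and 211 CPM in b-gal+ cells, 271 and 226 CPM in b-gal- cells, 417 and 222 CPM in EpCAM-positive cells, and 90.5 and 84.5 CPM in hepatocytes. Mitotic sums spread further within and between groups than S phase sums. Mki67 and Top2a made up 49.2% and 52.0% of the mitotic sum of the b-gal+ libraries, 39.5% and 35.7% of that of the b-gal- libraries, 50.1% and 45.5% for EpCAM-positive libraries, and 25.0% and 18% for hepatocyte libraries, so the sums weigh these 2 genes heavily and the mean of logs does not.

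**Figure D4:**
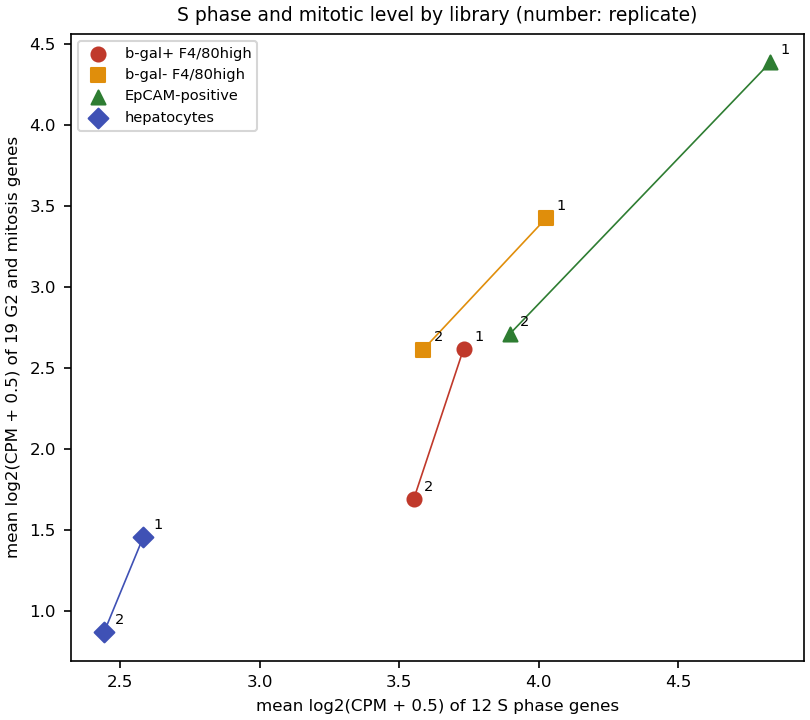
Mean log2(CPM + 0.5) of the 12 S phase genes (x axis) and of the 19 G2 and mitosis genes (y axis) in each library; a line joins the replicates of a group and the number is the replicate. Replicate 1 lies above replicate 2 on the y axis in every group, by the most in EpCAM-positive cells (4.39 and 2.71).

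Within every group most mitotic genes were higher in replicate 1 than in replicate 2: 18 of 19 in b-gal+ cells (median log2 difference 1.03), 19 of 19 in b-gal- cells (0.86), 19 of 19 in EpCAM-positive cells (1.71) and 16 of 19 in hepatocytes (0.72). Of all genes, 49.7%, 50.9%, 51.2% and 48.6% were higher in replicate 1. S phase genes were higher in replicate 1 in 8, 11, 12 and 7 of 12 cases, with medians of 0.24, 0.41, 0.91 and 0.08, and G1 genes in 3, 4, 5 and 3 of 7 cases. The SE of a log2 difference was 0.22 to 0.60 for S phase genes and 0.46 to 0.76 for mitotic genes. All 7 neutrophil markers were also higher in replicate 1 in every group. Their sums were 109 and 7.36 CPM in b-gal+ cells and 324 and 15.4 CPM in b-gal- cells. In EpCAM-positive cells they were 344 and 13.1 CPM. In hepatocytes they were 7.46 and 1.44 CPM, and Camp, Ngp and Mpo had 0 reads in replicate 2 there. Recruited monocyte markers were higher in replicate 1 for 6, 6, 6 and 5 of 6 genes. Other leukocyte markers did not move this way outside EpCAM-positive cells. B and plasma cell markers were higher in replicate 1 for 1, 0, 6 and 1 of 6 genes. T and NK cell markers were higher for 1, 0, 7 and 2 of 7 genes, and dendritic cell markers for 3, 1, 5 and 0 of 6. The part of these cell types in the mitotic difference was not tested.

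**Figure D5:**
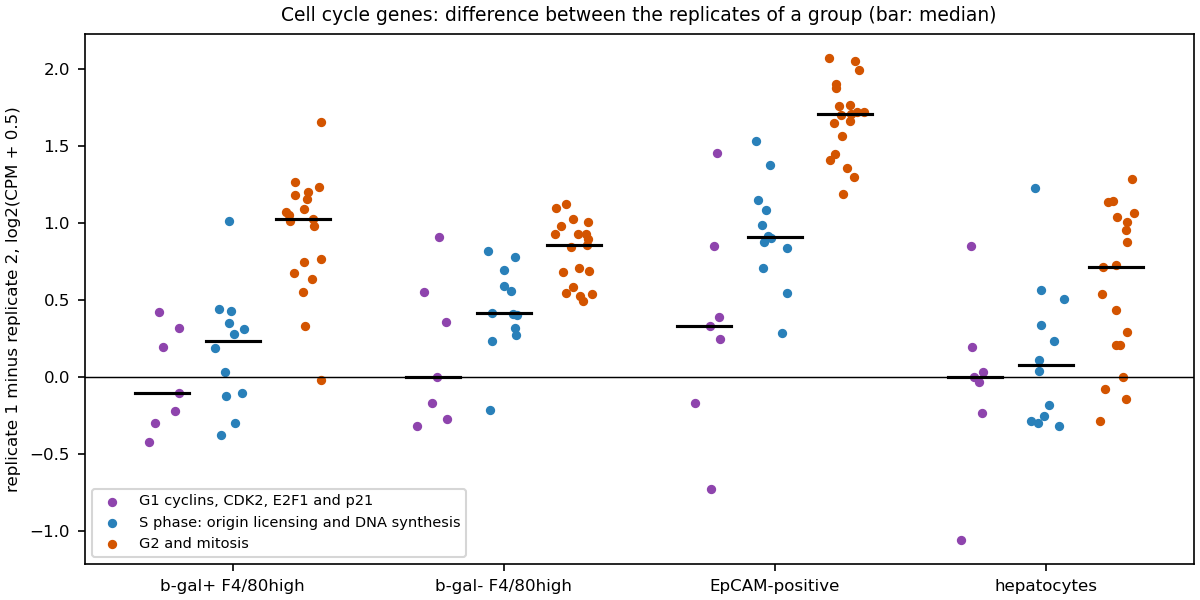
Difference between replicate 1 and replicate 2 in log2(CPM + 0.5) for each gene (points) by group, with G1 genes in purple, S phase genes in blue and G2 and mitosis genes in orange; black bars are medians. The mitotic medians are 1.03, 0.86, 1.71 and 0.72 in b-gal+, b-gal- and EpCAM-positive cells and hepatocytes.

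Further genes of the same pathways were counted from lists. Of 38 other replication genes, 14 were higher and 3 lower than in hepatocytes in b-gal+ cells, 16 higher and 5 lower in b-gal- cells, and 24 higher and 3 lower in EpCAM-positive cells. Of 44 other mitotic genes, 11 were higher and 3 lower in b-gal+ cells, 19 higher and 3 lower in b-gal- cells, and 31 higher and 2 lower in EpCAM-positive cells. Of 7 cytokinesis genes, 3, 6 and 6 were higher and 0 lower. Of all genes, 29.5%, 33.5% and 33.5% were higher and 29.6%, 29.7% and 29.1% lower in b-gal+, b-gal- and EpCAM-positive cells. The b-gal+ counts of higher replication and mitotic genes were thus near the share of all genes, and the EpCAM-positive counts above it. As among the 38 genes, the count of higher mitotic genes was smallest in b-gal+ cells; the difference between these counts was not tested.

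A few replication and kinetochore genes ran against their lists. Mcm10, an activator of the helicase, had 2.55 and 2.49 CPM in b-gal+ cells, against 51.9 and 22.8 CPM in hepatocytes, without overlap. It was lower in b-gal+ cells than in hepatocytes by -3.53 ± 0.54 (adjusted p = 0.00118). The lowest difference among the other replication genes was -4.64, so Mcm10 was not the lowest of its list. The kinetochore genes Cenpm and Spc24 were lower by -4.41 ± 0.59 (0.000676) and -4.17 ± 0.52 (0.00047). These lower calls were not particular to b-gal+ cells. For the b-gal- gate, Mcm10, Cenpm and Spc24 were also called lower than in hepatocytes, each kept in 18 of 18 alternatives. The EpCAM-positive group had these lower calls too, kept in 15, 17 and 14 of 17 alternatives. In the other direction, Kif23, the motor of the central spindle, had 54.3 and 44.5 CPM in b-gal+ cells, 15.6 and 9.93 CPM in b-gal- cells, 27.3 and 11.7 CPM in EpCAM-positive cells, and 0.960 and 0.399 CPM in hepatocytes. The b-gal+ libraries were above all others, which no mitotic gene of the 38 shows. Kif23 was higher in b-gal+ cells by 1.94 ± 0.46 than in b-gal- cells (0.0245; lost without any 1 of those 4 libraries, 0.0517 to 0.157) and by 5.44 ± 0.46 than in hepatocytes (8e-05, held in every alternative). Incenp, which anchors Aurora B, was higher than in hepatocytes by 4.12 ± 0.32 in b-gal+ cells (5.41e-05).

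Between b-gal+ and b-gal- cells, 3 other replication genes were higher and 4 lower, 0 other mitotic genes higher and 2 lower, and 1 cytokinesis gene higher and 1 lower, where 10.3% of all genes were higher and 13% lower; the replication counts are near these shares and the mitotic counts under them. The nucleotide enzymes split: Tk1, thymidine kinase, had 19 and 26.5 CPM in b-gal+ cells and 6.60 and 4.35 CPM in b-gal- cells (1.97 ± 0.39, adjusted p = 0.013; 0.0898 without b-gal+ library 2 and 0.0936 without b-gal- library 2), whereas Dut, which removes dUTP, had 7.11 and 7.48 CPM in b-gal+ cells and 16.5 and 26.9 CPM in b-gal- cells (-1.47 ± 0.26, 0.00833; 0.0509 and 0.0596 without b-gal+ library 1 and 2, 0.0618 without b-gal- library 2). The chromokinesin Kif4 had 3.76 and 1.69 CPM in b-gal+ cells and 20.1 and 16.7 CPM in b-gal- cells (-2.62 ± 0.48, 0.00983; 0.0707 without b-gal+ library 2, 0.0536 and 0.0556 without b-gal- library 1 and 2). In each of these pairs the groups did not overlap.

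Counts of some genes are uncertain by their position or copies. Exons of Kif20a, Ccnd1, Ube2c, Ccne2 and Ccna2 share 29.3%, 23.36%, 22.77%, 17.42% and 12.49% of their bases with a gene on the other strand (Cdc23, LTO1, Tnnc2, Ints8 and Exosc9), from GENCODE M21 on GRCm38, and Pcna, Tyms, Ccnb1 and Ccnb2 have named pseudogenes. How reads of such places were assigned was not given in the sources used here.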

How the data were processed

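Gene-level reads were deposited for 8 bulk RNA-seq libraries, 2 per sorted population. Reads were counted per gene with HTSeq on GRCm38.p4 (mm10), per the submitters' processing notes; neither the aligner nor the way values were scaled is stated there. Hepatocyte replicate 1 was deposited by the authors as raw counts, and the other 7 tables as counts multiplied by a factor per library (a scaled count score), from which whole reads were recovered within 0.01. Rows whose gene name had become a date, which held 0.0514% to 0.182% of the reads, were left out. From these reads CPM with TMM factors (edgeR 4.0.16) and log2(CPM + 0.5) were computed. All 8 libraries entered a limma 3.58.1 fit with trend, with Benjamini-Hochberg adjustment over the 14404 genes that passed edgeR's filterByExpr and a threshold of 0.05 (R 4.3.3, 4 residual degrees of freedom), tested on simulated data. The members, gene lists and marker lists were chosen with earlier results of these data known. All 38 members are accounted for. Given in full per role list and comparison are the called members, of at least 1 CPM mean, with the highest and lowest log2 difference. Mki67, Top2a, Ccnd1, Ccnd2 and Cdkn1a were added whatever their values. From each other list up to 3 called genes with large differences are given, not always those with the largest. Cdc6, Aurkb, Ccna2, Ccnb2, Foxm1, Bub1, Tpx2, Cenpf, Rrm1, Tyms and Ccnb1 were named after their values were seen. Alternatives were edgeR's quasi-likelihood test, DESeq2 1.42.0, other scalings, pseudocount 2, no filter, libraries left out and a replicate block. Tables and plots were made with Python 3.11.15. Promoter sequences are from RefSeq on GRCm38.p6, and gene positions and exon lengths from GENCODE M21.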

Additional observations from a re-analysis of the deposited data

How the results depend on the processing

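Over 1334 pairs of a called gene and an alternative, 1184 kept the call, 150 lost it and 0 reversed. Calls held in every alternative for 1 of 4 genes in b-gal+ against b-gal- cells, 6 of 15 in b-gal+ cells against hepatocytes, 9 of 23 in b-gal- cells against hepatocytes, 15 of 26 in EpCAM-positive cells against hepatocytes, 1 of 7 in b-gal+ against EpCAM-positive cells and 0 of 1 in b-gal- against EpCAM-positive cells. With library totals alone, 24 genes were higher and 0 lower in b-gal+ cells than in hepatocytes, and 16 were lower than in EpCAM-positive cells. That scaling moved the median of all genes against hepatocytes to 0.82, 1.08 and 1.37 in b-gal+, b-gal- and EpCAM-positive cells and the share of calls that are higher to 75.66%, 78.84% and 85.41%, against 49.92%, 53.02% and 53.52% with TMM. It also moved that share to 34.07% in b-gal+ against b-gal- cells (44.38% with TMM), 21.12% in b-gal+ against EpCAM-positive cells (45.07%) and 17.3% in b-gal- against EpCAM-positive cells (46.16%). Pseudocount 2, no filter and edgeR each gave 0 genes lower in b-gal+ cells than in hepatocytes, and the last 2 gave 0 lower in b-gal- than in EpCAM-positive cells. DESeq2 gave 2 lower in b-gal+ cells than in hepatocytes and 13 lower than in EpCAM-positive cells. Against EpCAM-positive cells DESeq2 called 5504 of all 14404 genes, 46.20% of them higher, where limma called 4686 and 45.07%. Without the EpCAM-positive libraries, 4 genes were lower in b-gal+ than in b-gal- cells, 4 lower in b-gal+ cells and 1 lower in b-gal- cells than in hepatocytes. All genes then gave 4475, 9158 and 9808 calls in these comparisons, 50.17%, 49.25% and 51.88% of them higher. The cause of these shifts was not tested.

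The S phase minus mitotic difference of hepatocytes was 0.97 with pseudocount 2. As a log2 ratio of summed CPM, the difference was 0.83 for b-gal+, 0.27 for b-gal- and -0.10 for EpCAM-positive cells, the last with its sign reversed.

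Leaving out 1 library gave 0 to 2 genes higher and 1 to 4 lower in b-gal+ than in b-gal- cells, 7 to 18 and 0 to 3 in b-gal+ cells against hepatocytes, 9 to 24 and 0 to 1 in b-gal- cells against hepatocytes, 17 to 34 and 0 to 1 in EpCAM-positive cells against hepatocytes, 0 to 1 and 1 to 20 in b-gal+ against EpCAM-positive cells, and 0 to 0 and 0 to 1 in b-gal- against EpCAM-positive cells. For the S phase minus mitotic difference, leaving out 1 library of a group returns the value of its other library, which is no further check. These values were 1.11 and 1.86 for b-gal+, 0.60 and 0.97 for b-gal-, 0.44 and 1.19 for EpCAM-positive cells and 1.13 and 1.57 for hepatocytes.

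The groups share replicate numbers, but only 2, and the labels do not say that a number marks shared mice; same-numbered libraries deviated together with r of 0.177 to 0.494 over genes. With the replicate block, 9 genes were lower in b-gal+ than in b-gal- cells, 3 lower in b-gal+ cells than in hepatocytes, 19 lower in b-gal+ than in EpCAM-positive cells and 2 lower in b-gal- than in EpCAM-positive cells. Genes higher than in hepatocytes numbered 21 in b-gal+, 28 in b-gal- and 33 in EpCAM-positive cells. Of all 14404 genes tested, 4587, 5161 and 5157 were higher in these populations with the block.

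With 2 libraries a group, each from 2 mice, differences within the replicate spread were not resolved, and genes of few reads, such as Ccnb1, carry counting error beside it.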

Other observations

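Cdkn1c and E2f7, which hold the cycle back, were lower in b-gal+ than in b-gal- cells. Cdkn1c, the CDK inhibitor p57, had 9.44 and 7.52 CPM in b-gal+ cells, 57.2 and 69.0 CPM in b-gal- cells, 26.9 and 30.4 CPM in EpCAM-positive cells, and 8.86 and 11.1 CPM in hepatocytes. The b-gal+ libraries were level with hepatocytes and below the others, and the difference from b-gal- cells was -2.83 ± 0.21 (limma adjusted p = 0.000902), held in every alternative. E2f7, an E2F repressor, had 2.64 and 1.53 CPM in b-gal+ cells and 16.6 and 18.6 CPM in b-gal- cells (-2.84 ± 0.36, 0.00244), also held in every alternative. Of the 6 CDK inhibitors besides Cdkn1a, 0 were higher and 2 lower in b-gal+ than in b-gal- cells, and of 17 E2F, pocket protein and DREAM or B-MYB genes 2 were higher and 1 lower, where 10.3% of all genes were higher and 13% lower. Of these CDK inhibitors, 3 were higher and 1 lower than in hepatocytes in b-gal+ cells, 5 higher and 0 lower in b-gal- cells, and 4 higher and 0 lower in EpCAM-positive cells, where 29.5%, 33.5% and 33.5% of all genes were higher and 29.6%, 29.7% and 29.1% lower in these populations.

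Of 18 target genes of p53, 3 were higher and 4 lower in b-gal+ than in b-gal- cells, where 10.3% and 13% of all genes were. Gdf15, a stress cytokine, had 29.0 and 34.2 CPM in b-gal+ cells and 2.00 and 0.489 CPM in b-gal- cells (4.35 ± 0.81, limma adjusted p = 0.0106; 0.0525 and 0.0691 without b-gal+ library 1 and 2, 0.073 without b-gal- library 2). The death receptor gene Fas had 15.5 and 11.7 CPM in b-gal+ cells and 61.1 and 82.6 CPM in b-gal- cells (-2.35 ± 0.21, 0.00103), and held in every alternative. Against hepatocytes, 8 of 18 were higher and 5 lower in b-gal+ cells, 7 higher and 4 lower in b-gal- cells, and 6 higher and 4 lower in EpCAM-positive cells, near the shares of all genes given above in b-gal- and EpCAM-positive cells. Pmaip1, the cell death gene NOXA, had 151 and 192 CPM in b-gal+ cells, 47.0 and 52.5 CPM in b-gal- cells, 215 and 108 CPM in EpCAM-positive cells, and 0.369 and 0.479 CPM in hepatocytes, which lay far below the other 6 libraries.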
